A study of Homo sapiens with 6 samples.

Results

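The genes described here encode the parts of the human proteasome that carry no proteolytic site of their own, and were compared between the carfilzomib-resistant myeloma line LP-1/Cfz and its parent LP-1. They were chosen by gene symbol, with earlier results of these data known. The choice took the PSMA, PSMC, PSMD, PSMF and PSMG genes, the 4 beta subunits PSMB1 to PSMB4, PSME4, ADRM1 and SEM1, which makes 40 genes. Of these, 36 were measured, on 71 probe sets, among 19775 genes on 54613 probe sets in all. The other 4 are PSMA6, for which every probe set also names another gene, and PSMC5, PSMD7 and PSMD13. These last were not analysed here because the annotation used names them on no probe set.

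LP-1 is a human multiple myeloma cell line, and LP-1/Cfz was derived from it by growth in carfilzomib. This drug selectively inhibits the chymotrypsin-like cutting activity of the proteasome. The labels give 12 nM carfilzomib for LP-1/Cfz, followed by 1 week without drug before RNA was taken, and an unselected parent, both in medium with 4% serum. The paper's methods give another serum content, and the sources used here do not say whether LP-1/Cfz is 1 clone. RNA of each of the 3 LP-1/Cfz and 3 LP-1 samples was hybridised to 1 Affymetrix U133 Plus 2.0 array.

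The 26S proteasome degrades proteins tagged with ubiquitin. Its 20S core is a barrel of alpha and beta rings, in which only some of the beta subunits cut, while the 19S cap on the end of the barrel has a base, with a ring of ATPases that unfold the substrate and ubiquitin receptors that hold it, and a lid, which removes the ubiquitin. Dedicated chaperones put the rings and the base together, and plasma cells, which secrete large amounts of antibody, are known for their sensitivity to proteasome inhibitors.

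The deposited values are on a log2 scale and were centred, probe set by probe set, on a reference that the sources used here do not name. Differences between arrays can therefore be read, while the level of a gene, and whether the cells express a marker at all, cannot. Every value by array below is the log2 value minus the mean of the 3 LP-1 arrays, averaged over the probe sets of the gene, and every difference is LP-1/Cfz minus LP-1. Replicate 3 of LP-1/Cfz was set apart from the rest by its interquartile range over probe sets, 0.338 where the other 5 arrays had 0.230 to 0.264. The words rose and fell are used of genes with a limma adjusted p under 0.05 over all genes. No source states that the samples were separate cultures, and the p-values then measure no more than the spread of these samples, which could be technical. With 3 against 3 arrays the smallest two-sided exact permutation p is 0.1. In the plasma cell list, SDC1 (0.38), TNFRSF17 (0.27) and NSD2 (0.78) rose, CD38 fell by 1.07, and 3 of 7 did not pass. NSD2 is counted in this list as a translocation target and is not itself a marker of plasma cells. Of the T and NK cell markers 1 of 6 fell, GNLY, and of the 6 myeloid and 6 stromal markers 0 passed, with 1 and 0 at an unadjusted limma p under 0.05. Over all genes, 29.8% had an unadjusted limma p under 0.05.

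Of the 36 genes, 1 rose and 4 fell in LP-1/Cfz, where 6.72% of all genes rose and 10% fell. As shares of the 36 these are 2.78% and 11.1%. The gene that rose was PSMD10, by 0.58, and those that fell were PSMD9, ADRM1, PSMC3 and PSMG2, by 0.43 to 0.18. In such bulk RNA, fewer cells of a type and less RNA per cell cannot be told apart. The remaining 31 genes did not pass, and their 95% intervals all lay between -0.28 and 0.27. A difference smaller than 0.2 in either direction was found for 32 of the 36 genes (88.9%), against 78.6% of all genes. The median difference was -0.05 over the 36 genes and 0.02 over all genes, and 26 of the 36 lay below 0 (72.2%, against 45.0% of all genes). Without LP-1/Cfz replicate 3 the median over the 36 genes was -0.012 with 21 below 0, after a second quantile normalization -0.025 with 21 below 0, and with array weights -0.023 with 25 below 0. In 15 genes the arrays of both groups did not overlap, 12 with LP-1/Cfz lower and 3 with it higher, which is 41.7% beside 35.9% of all genes.

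**Figure D1:**
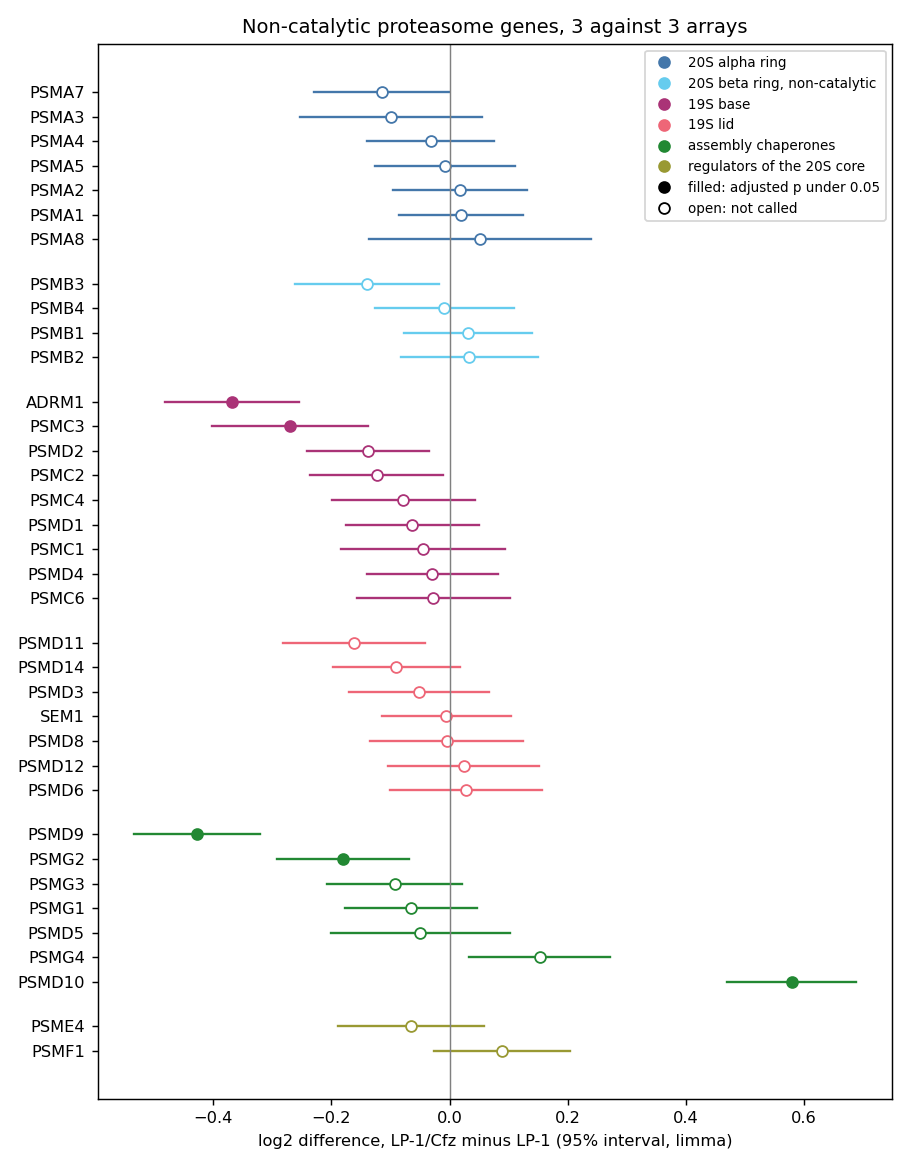
Log2 difference between LP-1/Cfz and LP-1 (x axis) for each of the 36 genes, grouped by subcomplex, with its 95% interval from limma over 3 against 3 arrays. Filled points, adjusted p under 0.05, are PSMD10 on the right at 0.58 and PSMD9, ADRM1, PSMC3 and PSMG2 on the left at -0.43, -0.37, -0.27 and -0.18, while the points of the 20S rings and of the lid are all open.

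Alpha subunits build the outer rings, which gate the entry to the core. Of the 8 alpha genes 7 were measured, without PSMA6 and with the testis form PSMA8. The test by limma was passed by 0 of 7, with 1 at an unadjusted p under 0.05 (14.3%, against 29.8% of all genes). The largest difference was that of PSMA7, the alpha4 subunit. On the LP-1/Cfz arrays its values were -0.09, -0.09 and -0.16, and on the LP-1 arrays 0.04, -0.04 and -0.0048. The LP-1/Cfz arrays all lay below the LP-1 arrays. The difference was -0.12 (standard error 0.05, limma adjusted p = 0.167 over all genes). PSMA3 (-0.10), PSMA4 (-0.03), PSMA5 (-0.01), PSMA2 (0.02), PSMA1 (0.02) and PSMA8 (0.05) had overlapping groups. LP-1/Cfz replicate 3 lay below all LP-1 arrays in 5 of the 7 genes, PSMA2, PSMA3, PSMA4, PSMA7 and PSMA8, down to -0.22 in PSMA3. The median of the 7 differences was -0.01.

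The 4 beta genes encode the inner-ring subunits without a cutting site. By limma 0 of 4 passed, with 1 at an unadjusted p under 0.05 (25%, against 29.8% of all genes). PSMB3, the beta3 subunit, had values of -0.09, -0.15 and -0.18 on the LP-1/Cfz arrays against 0.05, -0.05 and 0.01 on the LP-1 arrays. These groups did not overlap either, and the difference was -0.14 (standard error 0.05, limma adjusted p = 0.121). It moved to 0.0016 when the arrays were quantile normalized again, so that its direction was not kept under that scaling. With each array centred on its median it was -0.15. The sign was kept in 8 of 9 alternatives on all arrays, and without any 1 of the 6 arrays (-0.17 to -0.12). PSMB1, PSMB2 and PSMB4 lay at 0.03, 0.03 and -0.01. The intervals of all 11 ring genes together lay between -0.26 and 0.24, and their median was -0.01.

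The 19S base held both of the fallen genes of the cap. Its ATPase ring, receptors and scaffolds were measured by 9 genes, of which 2 fell, 0 rose and 7 did not pass. As shares, 22.2% fell and 0% rose, beside 10% and 6.72% of all genes. All 9 differences were below 0, against 45.0% of all genes, with a median of -0.08 beside 0.02 for all genes. With the arrays quantile normalized again 8 of 9 lay below 0, and without LP-1/Cfz replicate 3 also 8 of 9. The median was also -0.08 over 21 other genes of the proteasome pathway, described at the end, of which 15 lay below 0 (71.4%).

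ADRM1 encodes Rpn13, a receptor that binds ubiquitin chains and recruits the deubiquitinase UCHL5. Its values were -0.31, -0.39 and -0.40 on the LP-1/Cfz arrays. On the LP-1 arrays they were 0.02, -0.01 and -0.01. The groups lay far apart compared with the spread inside each of them. ADRM1 fell by 0.37 on the log2 scale (standard error 0.05, limma adjusted p = 0.00191), which is 1.29-fold lower. It was measured by 1 probe set, whose own test over all probe sets also passed (limma adjusted p = 0.0066). PSMC3 encodes Rpt5, an ATPase of the base. Its values were -0.22, -0.26 and -0.34 on the LP-1/Cfz arrays and 0.03, -0.07 and 0.04 on the LP-1 arrays. All LP-1/Cfz arrays lay below the lowest LP-1 array, replicate 2. PSMC3 fell by 0.27 on the log2 scale (standard error 0.06, limma adjusted p = 0.0155), 1.21-fold lower. The adjusted p rose to 0.0666 without LP-1 replicate 1 and to 0.0703 without LP-1 replicate 3, and stayed under the threshold without any 1 of the other 4 arrays.

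**Figure D2:**
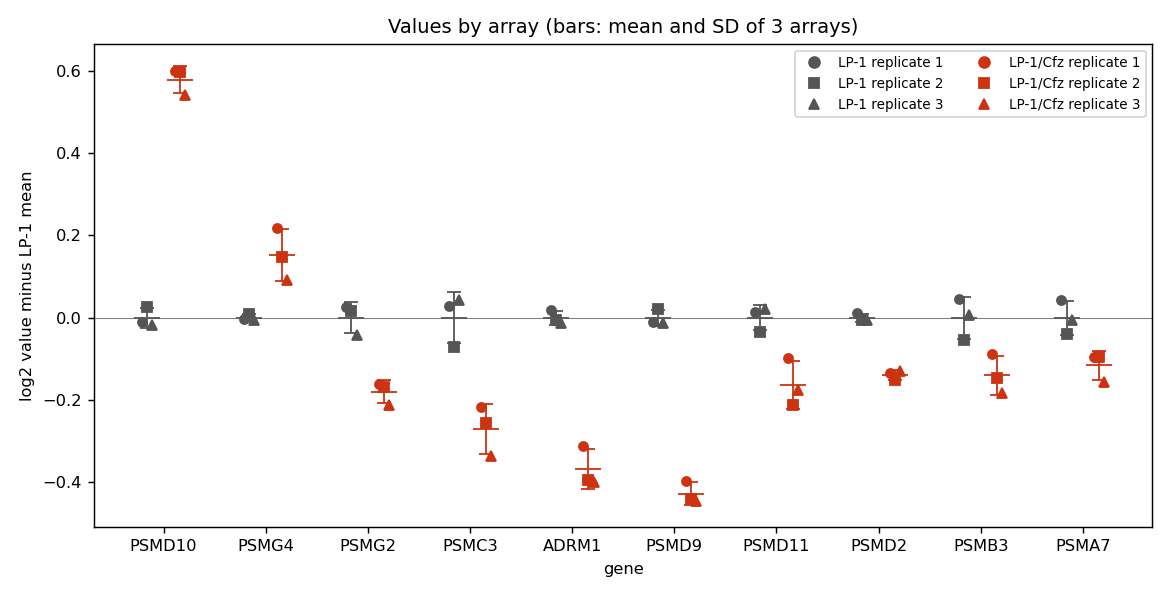
Log2 value minus the LP-1 mean (y axis) on each of the 6 arrays for 10 genes, with LP-1 in grey, LP-1/Cfz in red, a symbol for each replicate number, and bars for the mean and SD of 3 arrays. The red points of PSMD10 lie at 0.54 to 0.60 and those of PSMD9 at -0.45 to -0.40. The 10 genes were picked for display from the 15 of 36 whose groups do not overlap (41.7%, against 35.9% of all genes).

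The other 7 base genes did not pass, with differences from -0.14 to -0.03. PSMD2, the Rpn1 scaffold on which receptors dock, had values of -0.14, -0.15 and -0.13 on the LP-1/Cfz arrays and 0.01, -0.01 and -0.01 on the LP-1 arrays. These arrays did not overlap, yet the difference of -0.14 did not pass (standard error 0.04, limma adjusted p = 0.0744). It passed after a second quantile normalization and with array weights. PSMC2, the Rpt1 ATPase, differed by -0.12 (adjusted p = 0.133, limma) with groups that did not overlap. The ATPases PSMC4 (-0.08), PSMC1 (-0.05) and PSMC6 (-0.03), the scaffold PSMD1 (-0.06) and the ubiquitin receptor PSMD4 (-0.03) had overlapping groups. Of the ubiquitin receptors ADRM1 and PSMD4, the difference had a 95% interval from -0.48 to -0.25 in the first and from -0.14 to 0.08 in the second. ADRM1 was not tested against PSMD4.

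The promoters of ADRM1 and PSMC3 are shown because these are the fallen genes of the base. Transcription of proteasome genes is known to be raised by NFE2L1 through antioxidant response elements, whose core TGACNNNGC was searched on both strands together with the CCAAT box, a common promoter element. The sequences are those of RefSeq on GRCh38.p14 and give the 160 bases before the first listed start of each gene, outside its first exon, for ADRM1 chr20:62302736-62302895 on the plus strand and for PSMC3 chr11:47426440-47426599 on the minus strand. Capitals mark the matches.
ADRM1: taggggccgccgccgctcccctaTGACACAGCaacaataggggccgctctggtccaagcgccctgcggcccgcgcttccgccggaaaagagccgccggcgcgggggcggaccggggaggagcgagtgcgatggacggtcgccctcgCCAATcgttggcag
PSMC3: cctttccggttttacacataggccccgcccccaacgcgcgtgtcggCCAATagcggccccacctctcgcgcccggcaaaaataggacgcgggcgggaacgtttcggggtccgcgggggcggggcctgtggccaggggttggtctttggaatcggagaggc
ADRM1 held 1 match to TGACNNNGC, beginning at position -137 from the start, and 1 CCAAT at -14. The matches do not overlap. PSMC3 held 1 CCAAT, at -114, and no match to TGACNNNGC in these letters.

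The 19S lid, whose Rpn11 subunit cuts the ubiquitin chain from the substrate, was measured by 7 of its 9 genes. By limma 0 of 7 passed, with 1 at an unadjusted p under 0.05 (14.3%, against 29.8% of all genes), and the median difference was -0.01. PSMD11, the Rpn6 subunit that clamps the lid to the core, had values of -0.10, -0.21 and -0.18 on the LP-1/Cfz arrays and 0.01, -0.03 and 0.02 on the LP-1 arrays. The groups did not overlap, and the difference was -0.16 (standard error 0.05, limma adjusted p = 0.0735). It shrank to -0.023 when the arrays were quantile normalized again (limma adjusted p = 0.824). Its 2 probe sets lay at -0.15 and -0.18, and neither passed. PSMD14, the Rpn11 deubiquitinase, differed by -0.09 without overlap (adjusted p = 0.245, limma). PSMD3 (-0.05), SEM1 (-0.01), PSMD8 (-0.01), PSMD12 (0.02) and PSMD6 (0.03) had overlapping groups. The lid median moved to 0.05 when the arrays were quantile normalized again, so that no direction can be given for the lid.

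The assembly chaperones held the largest changes of the 36 genes, in both directions. Of 7 genes 1 rose (14.3%, against 6.72% of all genes), 2 fell (28.6%, against 10%) and 4 did not pass. The groups did not overlap in 6 of 7 (85.7%, against 35.9% of all genes). PSMD10, PSMD9 and PSMD5 are chaperones of the ATPase ring of the base, each of which holds certain ATPases until the base is put together, and PSMG1 to PSMG4 are the PAC chaperones of the alpha ring.

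PSMD10 encodes gankyrin, which holds the ATPase PSMC4 and is also known as an oncoprotein. Its values were 0.60, 0.60 and 0.54 on the LP-1/Cfz arrays. On the LP-1 arrays they were -0.01, 0.03 and -0.02. PSMD10 was thus well above the parent on every LP-1/Cfz array. It rose by 0.58 (standard error 0.05, limma adjusted p = 0.000173), which is 1.49-fold. Both of its probe sets rose, by 0.58 and 0.57. Of all genes, 99.1% had a smaller signed difference. PSMD9, also called p27, holds the ATPases PSMC3 and PSMC6. Its values were -0.40, -0.44 and -0.45 on the LP-1/Cfz arrays and -0.01, 0.02 and -0.01 on the LP-1 arrays. The LP-1/Cfz arrays lay together and far below the parent. PSMD9 fell by 0.43 on the log2 scale (standard error 0.05, limma adjusted p = 0.000711), 1.34-fold lower, and both of its probe sets fell, by 0.49 and 0.37. Both genes and ADRM1 passed without any 1 of the 6 arrays. Against a minimum fold change of 1.2, of the 36 genes only PSMD10 passed (limma adjusted p = 0.00511). PSMD5, also called S5b, which holds the ATPases PSMC2 and PSMC1, differed by -0.05 with overlapping groups. PAAF1, a further chaperone of the base whose symbol lies outside the choice of genes, differed by 0.05 (limma adjusted p = 0.514). Of the client ATPases of PSMD10, PSMD9 and PSMD5, PSMC3 fell, and PSMC4, PSMC6, PSMC2 and PSMC1 did not pass.

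PSMG2 encodes PAC2, which forms a pair with PSMG1 to scaffold the alpha ring. Its values were -0.16, -0.17 and -0.21 on the LP-1/Cfz arrays and 0.03, 0.02 and -0.04 on the LP-1 arrays. All LP-1/Cfz arrays lay below the parent. PSMG2 fell by 0.18 on the log2 scale (standard error 0.05, limma adjusted p = 0.0402), 1.13-fold lower. This call was lost without any 1 of the 6 arrays (adjusted p from 0.0645 to 0.141). Its single probe set did not pass among all probe sets (limma adjusted p = 0.1). Its partner PSMG1 differed by -0.06 and PSMG3 by -0.09, both without overlap and without passing.

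PSMG4, the PAC4 chaperone, was the gene with the widest spread between probe sets. Over the gene the values were 0.22, 0.15 and 0.09 on the LP-1/Cfz arrays and -0.0035, 0.01 and -0.01 on the LP-1 arrays. The groups did not overlap, and the difference was 0.15 (standard error 0.05, limma adjusted p = 0.0867). It passed without LP-1/Cfz replicate 3 (adjusted p = 0.0449, limma) and with array weights. Of its 5 probe sets 1 rose, by 0.53 (standard error 0.11, limma adjusted p = 0.0158), with 0.70, 0.51 and 0.39 on the LP-1/Cfz arrays and -0.15, 0.01 and 0.15 on the LP-1 arrays. The other probe sets of PSMG4 ranged from -0.11 to 0.15 and did not pass.

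**Figure D3:**
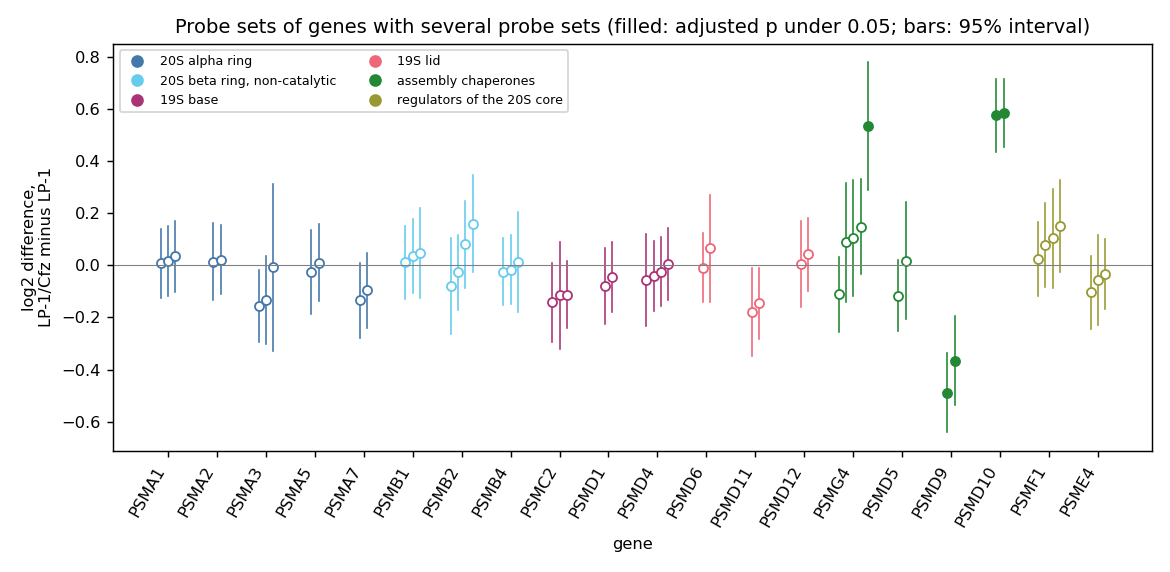
Log2 difference between LP-1/Cfz and LP-1 (y axis, with 95% interval) of each probe set of the 20 genes measured by more than 1 probe set, coloured by subcomplex and filled where the adjusted p over all probe sets was under 0.05. Both probe sets of PSMD10 (0.57 and 0.58) and of PSMD9 (-0.49 and -0.37) pass together, while only 1 of the 5 probe sets of PSMG4 does.

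Over the probe sets, 3 of the 71 rose and 4 fell, where 4.25% of all probe sets rose and 6.76% fell. Those that rose belong to PSMD10 and PSMG4, and those that fell to PSMD9, ADRM1 and PSMC3. Of the 20 genes with several probe sets, 13 had all of them on the same side of 0. Where they disagreed, in PSMA5, PSMB2, PSMB4, PSMD4, PSMD6, PSMG4 and PSMD5, the gene did not pass.

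The promoters of the changed chaperones are given for comparison with those of the base, from the same source and over the same 160 bases. They lie at chrX:108091543-108091702 on the minus strand for PSMD10, at chr12:121888630-121888789 on the plus strand for PSMD9 and at chr18:12658578-12658737 on the plus strand for PSMG2. Capitals again mark TGACNNNGC and CCAAT on either strand.
PSMD10: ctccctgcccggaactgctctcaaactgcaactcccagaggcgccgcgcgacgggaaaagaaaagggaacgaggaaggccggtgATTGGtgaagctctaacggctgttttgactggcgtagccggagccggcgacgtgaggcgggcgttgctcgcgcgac
PSMD9: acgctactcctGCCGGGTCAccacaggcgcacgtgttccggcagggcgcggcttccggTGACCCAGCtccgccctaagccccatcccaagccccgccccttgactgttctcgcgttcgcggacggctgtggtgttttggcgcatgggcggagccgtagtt
PSMG2: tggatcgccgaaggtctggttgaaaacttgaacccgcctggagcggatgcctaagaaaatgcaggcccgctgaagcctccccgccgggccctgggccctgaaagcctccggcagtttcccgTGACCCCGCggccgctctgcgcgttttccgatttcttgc
PSMD9 held 2 matches to TGACNNNGC, at -149 on the opposite strand and at -102, and PSMG2 held 1, at -39. PSMD10 held a CCAAT on the opposite strand, at -76. Within the 250 bases before the start, 9 of the 32 measured genes with an entry (28.1%) held TGACNNNGC, against 11.0% of 27305 promoters in all, and 13 of 32 (40.6%) held CCAAT, against 33.0%. By subcomplex TGACNNNGC was found in 0 of 6 promoters of the alpha ring, 1 of 3 of the beta ring and 1 of 8 of the base. It was found in 2 of 7 of the lid, 4 of 6 of the chaperones and 1 of 2 of the regulators. Of the 5 called genes, 3 held it (ADRM1, PSMD9 and PSMG2), as did PSMB3, PSMD3, PSMD12, PSMG1, PSMD5 and PSME4, which did not pass the expression test. Where several starts were listed for a gene, as for ADRM1 and PSMG2, only the first was searched. PSMA7, PSMB1, PSMD4 and PSMG3 had no entry.

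PSMF1 (PI31) and PSME4 (PA200), regulators that bind the 20S core, did not pass the test (0 of 2 by limma, with 0 at an unadjusted p under 0.05, against 29.8% of all genes). PSMF1 had values of 0.10, 0.09 and 0.08 on the LP-1/Cfz arrays and 0.02, -0.06 and 0.04 on the LP-1 arrays. The groups did not overlap, and the difference was 0.09 (standard error 0.05, limma adjusted p = 0.282). It was 0.058 without LP-1 replicate 2. PSME4, the activator known from testis and DNA repair, differed by -0.07 with overlapping groups.

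The medians of the subcomplexes were also read array by array. Over the 9 base genes the median was -0.05, -0.08 and -0.13 on the LP-1/Cfz arrays and 0.01, -0.01 and 0.01 on the LP-1 arrays. Over the 7 chaperones it was -0.04, -0.03 and -0.11, against -0.0035, 0.01 and -0.01. In both the groups did not overlap. In the alpha ring, the beta ring, the lid and the regulators of the core they did. Replicate 3 gave the lowest LP-1/Cfz median in each of the 6 subcomplexes. Of the 36 genes, 26 lay below all LP-1 arrays on LP-1/Cfz replicate 3 (72.2%, against 37.4% of all genes), where 15 did on replicate 1 (41.7%, against 32.3%) and 18 on replicate 2 (50%, against 32.5%). On the same array the medians of the T and NK cell markers (0.14) and of the myeloid markers (0.09) were the highest of the LP-1/Cfz arrays, where the others had -0.12 to -0.03. Within these lists GNLY (-0.40) and MPO (-0.06) had their lowest LP-1/Cfz value on replicate 3, and CD14 (-0.09) lay between its other values. The stromal marker median was highest on replicate 3 too (0.068, against 0.020 and -0.023), and the plasma cell marker median was lowest (0.030, against 0.14 and 0.18). This array also had the widest interquartile range (0.338). The part of these markers, or of the wider spread, in the lower proteasome values of replicate 3 was not tested. Without this array the base median was -0.05, and ADRM1, PSMC3, PSMD9 and PSMD10 passed.

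**Figure D4:**
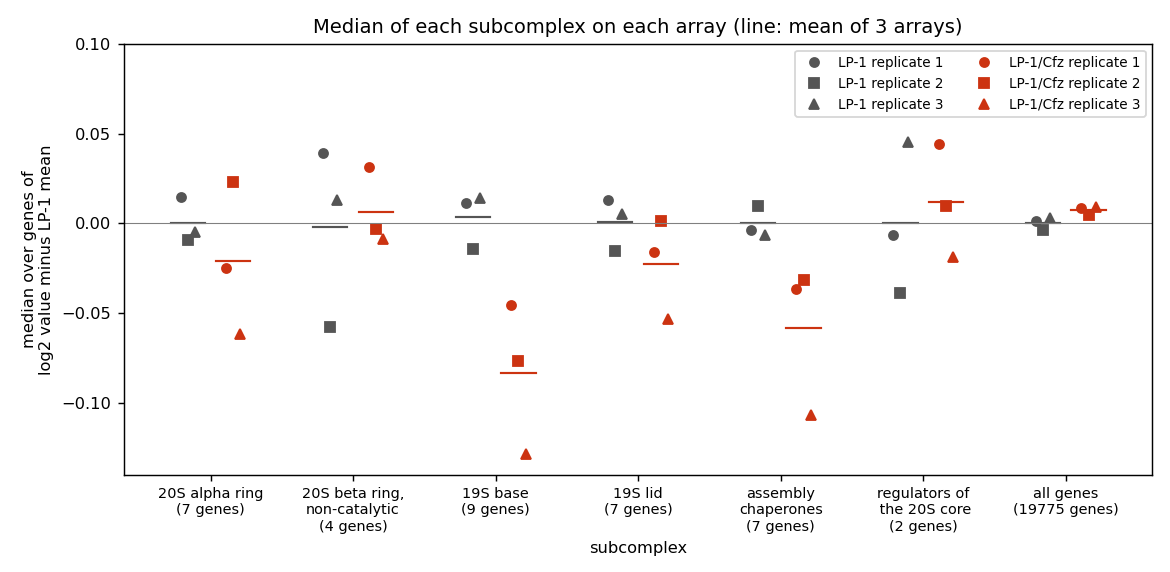
Median over the genes of each subcomplex of the log2 values less the mean of the LP-1 arrays (y axis), on each of the 6 arrays, with all genes at the right and a line at the mean of 3 arrays. The red LP-1/Cfz points lie below the grey LP-1 points in the 19S base (-0.13 to -0.05) and the assembly chaperones (-0.11 to -0.03), overlap with them in the other subcomplexes, and are lowest for replicate 3.

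The position of the genes was not used in choosing them. They lie on 16 chromosomes, and each was set beside the 10 measured genes on either side in RefSeq order, except PSMB1, near a chromosome end, with 12 neighbours in all. The median difference of these neighbours was 0.36 for PSMD10, on chromosome X, where the 5th and 95th percentiles of the neighbour medians of all 19734 placed genes were -0.09 and 0.09. Where 6.72% of all genes rose and 10% fell, 10 of the 20 neighbours of PSMD10 rose, 0 fell and 19 lay above 0. Those that rose, among them ATG4A (0.50) next to it, MID2 (0.98) and TMEM164 (0.80), did so by 0.40 to 0.98, so that the rise of PSMD10 by 0.58 was within their range. For PSMD9, on chromosome 12, the median of the neighbours was -0.13. Of its 20 neighbours 8 fell and 0 rose, by 0.19 to 1.03, the largest being KDM2B (-1.03). Its 2 nearest neighbours, HPD (-0.15) and CFAP251 (0.02), did not pass. For ADRM1 the neighbours had a median of -0.02 and 0 of 20 passed by limma. For PSMC3 the median was -0.02, with 1 neighbour higher and 2 lower, and for PSMG2 -0.05, with 1 higher and 3 lower. Of the 36 genes, PSMD10 and PSMD9 were those whose neighbours lay outside these percentiles. Whether a change of the chromosome region has a part in the values of these 2 chaperones was not tested.

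**Figure D5:**
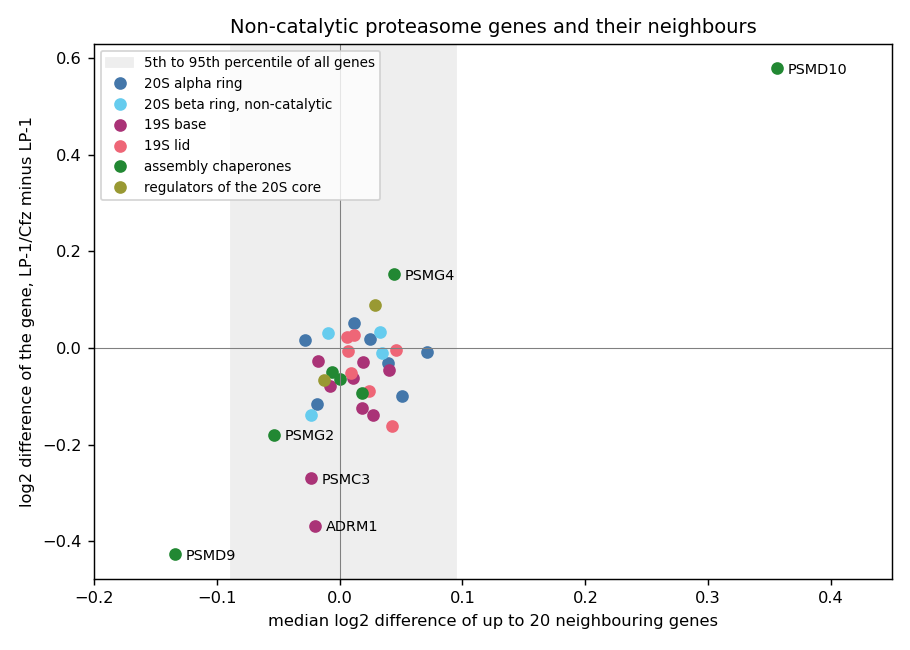
Log2 difference of each of the 36 genes (y axis) against the median log2 difference of up to 20 neighbouring genes (x axis), coloured by subcomplex, with the band from the 5th to the 95th percentile of all genes in grey. PSMD10 (neighbours 0.36) and PSMD9 (neighbours -0.13) lie outside the band, and ADRM1 and PSMC3 inside it with neighbours at -0.02.

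Around these genes, 24 other genes of the proteasome pathway were listed, of which 21 were measured. By limma 1 rose (4.76%, against 6.72% of all genes), 4 fell (19.05%, against 10%) and 16 did not pass. The median was -0.08. PSMB5, the beta5 subunit that carfilzomib binds, had values of 0.30, 0.27 and 0.19 on the LP-1/Cfz arrays and rose by 0.25 (standard error 0.05, limma adjusted p = 0.0127). Its call was lost without LP-1 replicate 2 (adjusted p = 0.0557). The immunoproteasome subunits, which replace the cutting subunits in immune cells, fell, PSMB8 by 0.56 (limma adjusted p = 0.000459), PSMB9 by 0.54 (0.000246) and PSMB10 by 0.32 (0.00324). VCP, the unfoldase that brings substrates to the proteasome, fell by 0.19 (limma adjusted p = 0.0317), a call lost without any 1 of the 6 arrays (adjusted p from 0.0525 to 0.129). After a second quantile normalization its difference was -0.054 (limma adjusted p = 0.484), and the call was also lost with the replicate number as a block (adjusted p = 0.0857). The other cutting subunits PSMB6 (-0.03) and PSMB7 (-0.10) did not pass. The same held for UCHL5 (0.05), the partner of ADRM1, for USP14 (-0.08), the other deubiquitinase that binds the base, for POMP (-0.14), which matures the core, and for NFE2L1 (-0.11). The shuttle factors RAD23B (0.04), UBQLN1 (0.02), UBQLN2 (0.12) and UBQLN4 (-0.08), which carry substrates to receptors of the base, did not pass either.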

How the data were processed

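Gene expression was measured on 6 Affymetrix arrays, 3 of LP-1/Cfz and 3 of LP-1, grouped by their labels. The values of the 54613 probe sets are log2 values as deposited by the authors, with RMA named, without a version, in the submitters' processing notes, and were centred by probe set on a reference not given in the sources used here. The number of arrays limits the precision.

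Of the probe sets, 41091 name 1 gene, 1801 several and 11721 none, and 41037 matched RefSeq by gene ID. The mean of the single-gene probe sets of each gene was fitted by limma 3.58.1 (lmFit, eBayes) in R 4.3.3 without a covariate or a filter on low values, with Benjamini-Hochberg adjustment over 19775 genes, and each probe set likewise over all probe sets. The fit was run on simulated normal values drawn independently for each gene and array. That setting lacks the wider spread of LP-1/Cfz replicate 3, so it does not check the p-values for it. Alternatives were another normalization, centring, array weights, spread estimate, probe set rule, a minimum fold change of 1.2, each array left out, and the replicate number as a block. Figures were drawn with matplotlib 3.10.9.

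The genes, the lists and the tests were chosen with earlier results of these data known. Values by array and full statistics are given for the called genes, the gene with the largest change of each subcomplex, genes of which some probe sets were called, and a few others described with them, PSMD2 among them, which was chosen after its values were seen. Arrays of other myeloma lines were not used here.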

Additional observations from a re-analysis of the deposited data

How the results depend on the processing

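Without any 1 of the 6 arrays, 1 to 2 of the 36 genes rose and 2 to 3 fell, 2 to 3 of their probe sets fell, and 0 to 1 of the other proteasome genes rose. The lid median ranged from -0.0457 to 0.00758 and the chaperone median from -0.0965 to -0.0485. With array weights 2 genes rose, PSMD10 and PSMG4. Without probe sets ending in _x_at or _s_at, 29 of the 36 genes could be tested, 1 gene and 1 probe set fell, 2 of the other proteasome genes fell, and the lid median was -0.0286. PSMC3 and PSMD9 have no other probe sets. Against a minimum fold change of 1.2, 0 of the 36 genes and 0 probe sets fell, and 0 of the other proteasome genes rose and 2 fell. A second quantile normalization moved the lid median to 0.0546 and turned PSMB3 to 0.00156 (adjusted p = 0.99). With the highest-mean probe set, which for centred values need not be the brightest, the median of PSMF1 and PSME4 was 0.0580. With each array centred on its median, or with trend and robust spread, the 5 called genes were the same.

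With the replicate number as a block, 4 of the 5 calls held and PSMG2 was lost (adjusted p = 0.0862, limma). Deviations from the group means correlated between same-numbered arrays by -0.05, 0.13 and -0.01, and between differently numbered arrays by -0.12 to 0.13. With 3 arrays per group these values cannot show whether same-numbered samples share a culture or a batch. Since the values are centred, signal over background cannot be read.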
